A study of Mus musculus with 18 samples.

Results

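The genes described here encode the nuclear subunits of the 5 oxidative phosphorylation complexes, measured by RNA sequencing in mouse mammary gland. They were chosen by symbol: rows beginning with Ndufa, Ndufb, Ndufc, Ndufs, Ndufv, Uqcr, Atp5 or Cox4 to Cox8, without Cox7a1, Cox8b and the Ndufaf assembly factors, together with Sdha to Sdhd. This gave 84 of the 23337 genes in the table. By complex, 36 belonged to complex I, 4 to complex II, 8 to complex III, 18 to complex IV and 15 to complex V. Another 3 symbols match the rule without encoding subunits and were kept apart: Atp5s (Dmac2l), Atp5sl (Dmac2, a complex I assembly protein) and Cox4nb (Emc8, part of a membrane protein insertion complex of the endoplasmic reticulum). Subunits encoded by mitochondrial DNA were not analysed here, since 0 symbols of the table begin with mt-.

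The study compared wild-type (WT) and Cip2a-/- mice, both of a mixed C57BL/6Jx129 strain; the CIP2A protein inhibits the phosphatase PP2A. Whole mammary glands, taken without their lymph nodes, came from untreated mice, from mice killed 2 weeks after DMBA treatment ended, and from mice at the endpoint, so that each of the 6 groups had 3 libraries. The treatment was 6 weekly gavages of 1 mg DMBA, a chemical carcinogen, in oil, begun when mice were 12 to 14 weeks old. Endpoint glands were tumour-free and came from mice killed because of DMBA-induced tumours somewhere in the body. No group received oil alone, so DMBA and gavage cannot be told apart, and the ages of the untreated and endpoint mice are unknown from the labels. The labels number the libraries of a group without saying that each came from a separate mouse, so p-values measure only the spread between these libraries. A whole gland holds fat, epithelium and other cells, and fewer cells of a type and less RNA per cell cannot be told apart.

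Oxidative phosphorylation passes electrons from NADH and succinate, through complexes I, II, III and IV, to oxygen, and complex V uses the resulting proton gradient to make ATP. Apart from complex II, each complex joins subunits encoded in the nucleus with subunits encoded in mitochondrial DNA. Several nuclear subunits of complex IV exist as isoforms made in particular tissues, such as Cox6a2, Cox7a1 and Cox8b in heart and skeletal muscle, the last 2 also in brown fat. Factors known for activating these genes include NRF1, the ETS factor GABP, YY1 and the estrogen-related receptors, with the coactivator PGC-1alpha.

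Total counts ranged from 16121743 to 24586404 per library. In the check of the targeted gene, Cip2a (listed as C330027C09Rik) had 15 to 126 reads in each WT library and 0 or 1 in each Cip2a-/- library. Levels are given as CPM, read counts scaled to the library's total after TMM scaling. WT endpoint 1 and Cip2a-/- 2 weeks 1 had the most RNA of skeletal muscle markers and are called muscle-rich below. Summed over 19 skeletal muscle genes, they reached 62332 and 100553 CPM, against 98.6 to 47968 CPM in the other libraries. The next highest were WT untreated 1, at 47968 CPM, and Cip2a-/- untreated 1, at 21968 CPM, so muscle RNA was not confined to the muscle-rich libraries. Summed over 12 brown fat genes, WT endpoint 1 reached 8145 CPM, against 71.9 to 859 CPM elsewhere, and its summed luminal epithelial markers were 54.0 CPM, against 705 to 4347 CPM. Cip2a-/- endpoint 3 stood apart in erythroid markers, which summed to 1779 CPM, against 14.8 to 236 CPM elsewhere. Its endothelial markers were also the highest, at 3291 CPM, against 910 to 2145 CPM. Medians over all the oxidative phosphorylation genes tested that rest on WT endpoint 1 or Cip2a-/- 2 weeks 1 are given with and without them. Some medians by complex or of other lists are given only with all libraries.

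Of the 84 genes, 81 had enough reads to be tested; the other 3 were Cox7b2 (0 reads in all), Cox8c (1 read) and Ndufs5 (5 reads). Cox7b2 and Cox8c encode testis isoforms of complex IV subunits. Ndufs5, a complex I subunit at chr4:123712710-123718186 (GRCm38), has a near-identical pseudogene, BC002163, which had 27 to 696 reads per library and 2957 in total, so the level of Ndufs5 is uncertain. In all, 33 of the 84 share a stretch of at least 100 bases at 97% identity or more with another gene, 16 of them with a pseudogene, and 28 overlap another gene. The labels do not say how reads that map to several places, or reads of either strand, were counted, so the values of these genes are uncertain.

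Promoters are shown for 3 genes that carry an NRF1 core, and for the 2 complex IV genes on which the time comparison below turns. Sequences run from 250 bases before to 30 bases after the annotated start, 5′ to 3′ on the gene's strand, from RefSeq on GRCm38.p6, and capitals mark matches on either strand to the NRF1 core (GCGC, any base, then TGCGC) or the ETS (GABP) core CCGGAAG. Sdha, encoding the flavoprotein of complex II, and Ndufb4, a complex I membrane arm subunit, have 3 NRF1 matches each, and Cox6a1, the widely expressed form of complex IV subunit 6a, has 2 NRF1 matches and 1 ETS match. Cox6b2, the testis form of subunit 6b, and Cox7a2l, which joins complexes III and IV into supercomplexes, have none. These windows lie on the minus strand at chr13:74350211-74350490 (Sdha), chr16:37654339-37654618 (Ndufb4), chr5:115348929-115349208 (Cox6a1), chr7:4753065-4753344 (Cox6b2) and chr17:83514304-83514583 (Cox7a2l).
Sdha: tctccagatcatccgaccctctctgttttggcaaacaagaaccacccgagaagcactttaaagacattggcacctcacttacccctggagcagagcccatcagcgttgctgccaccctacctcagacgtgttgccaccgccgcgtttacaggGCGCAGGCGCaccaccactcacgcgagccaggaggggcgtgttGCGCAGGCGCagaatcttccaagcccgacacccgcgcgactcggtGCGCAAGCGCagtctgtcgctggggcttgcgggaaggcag
Ndufb4: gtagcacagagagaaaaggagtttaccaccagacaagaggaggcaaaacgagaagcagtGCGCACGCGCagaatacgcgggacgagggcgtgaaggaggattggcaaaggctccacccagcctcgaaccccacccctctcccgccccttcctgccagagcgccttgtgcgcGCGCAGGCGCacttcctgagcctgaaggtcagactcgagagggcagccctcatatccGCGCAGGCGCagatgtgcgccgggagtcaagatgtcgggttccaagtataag
Cox6a1: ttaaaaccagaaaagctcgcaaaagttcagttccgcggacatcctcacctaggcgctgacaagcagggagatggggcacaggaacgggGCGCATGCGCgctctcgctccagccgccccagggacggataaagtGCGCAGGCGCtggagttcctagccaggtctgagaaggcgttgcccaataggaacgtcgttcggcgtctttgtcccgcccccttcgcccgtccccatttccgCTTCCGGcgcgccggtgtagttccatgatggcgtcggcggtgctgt
Cox6b2: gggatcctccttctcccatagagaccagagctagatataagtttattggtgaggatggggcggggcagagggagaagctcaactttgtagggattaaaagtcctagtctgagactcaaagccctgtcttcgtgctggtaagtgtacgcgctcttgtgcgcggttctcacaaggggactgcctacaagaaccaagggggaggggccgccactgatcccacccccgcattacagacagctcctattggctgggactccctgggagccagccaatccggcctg
Cox7a2l: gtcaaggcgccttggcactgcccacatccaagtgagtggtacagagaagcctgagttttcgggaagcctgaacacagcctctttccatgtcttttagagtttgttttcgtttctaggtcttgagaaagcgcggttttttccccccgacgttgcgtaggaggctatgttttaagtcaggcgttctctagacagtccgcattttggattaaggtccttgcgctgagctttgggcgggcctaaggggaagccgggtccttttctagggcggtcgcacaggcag

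Windows of 250 bases before to 50 bases after the start were available for 68 of the 84 genes, as 74 windows. The NRF1 core stood in 24.3% of them (18 windows), against 4.60% of the 32851 windows of all genes. The ETS core stood in 21.6% (16 windows), against 8.86%. The YY1 element AAGATGGCG stood in 12.2% (9 windows), against 1.40%, and the estrogen-related receptor element TCAAGGTCA in 2.70% (2 windows), against 0.423%. By complex, the NRF1 core was in 8 of 34 windows of complex I, 2 of 3 of complex II, 1 of 5 of complex III, 1 of 12 of complex IV and 6 of 17 of complex V. A match describes the letters only, not binding of the factor.

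Together the 84 genes took between 1.09% and 3.60% of a library's reads. The 3 WT endpoint libraries held both the highest share and one of the lowest, at 3.60%, 1.26% and 1.99%, and the 3 Cip2a-/- endpoint libraries held 1.78%, 1.56% and 1.09%. The 12 untreated and 2-week libraries lay between 1.37% and 2.08%. Levels per kilobase of transcript, which allow genes to be compared, were highest for a complex V gene, Atp5b (the catalytic beta subunit), at 1112 CPM per kilobase. Atp5a1, the alpha subunit, reached 499. In complex IV, Cox4i1 reached 828 and Cox8a 773 CPM per kilobase, and in complex III Uqcrh reached 502 and Uqcr11 432. Complexes I and II were lower at their top, with 318 for Ndufb9, 294 for Ndufa7, 224 for Sdhb and 215 for Sdha. These levels use the median length of a gene's annotated transcripts. For 22 of the 84 genes those lengths varied over 1.5 times, so their levels and shares per kilobase are uncertain.

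The subunits of all 5 complexes varied together from library to library. After the group means were removed, the correlation of a gene with the mean of the others over the 18 libraries was above 0.8 for 69 of 81 genes, with a median of 0.956. The medians were 0.961 in complex I, 0.955 in II, 0.966 in III, 0.932 in IV and 0.952 in V, and the closest were the complex IV subunits Cox5a (0.991) and Cox5b (0.989). These points share libraries, and the libraries that stand apart weigh heavily in them. Of the 81 genes, 72 were highest in WT endpoint 1, while 38 were lowest in Cip2a-/- endpoint 3 and 26 in WT endpoint 2. The shares of all genes with such extremes or correlations are not given here, so these counts describe the list only.

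**Figure D1:**
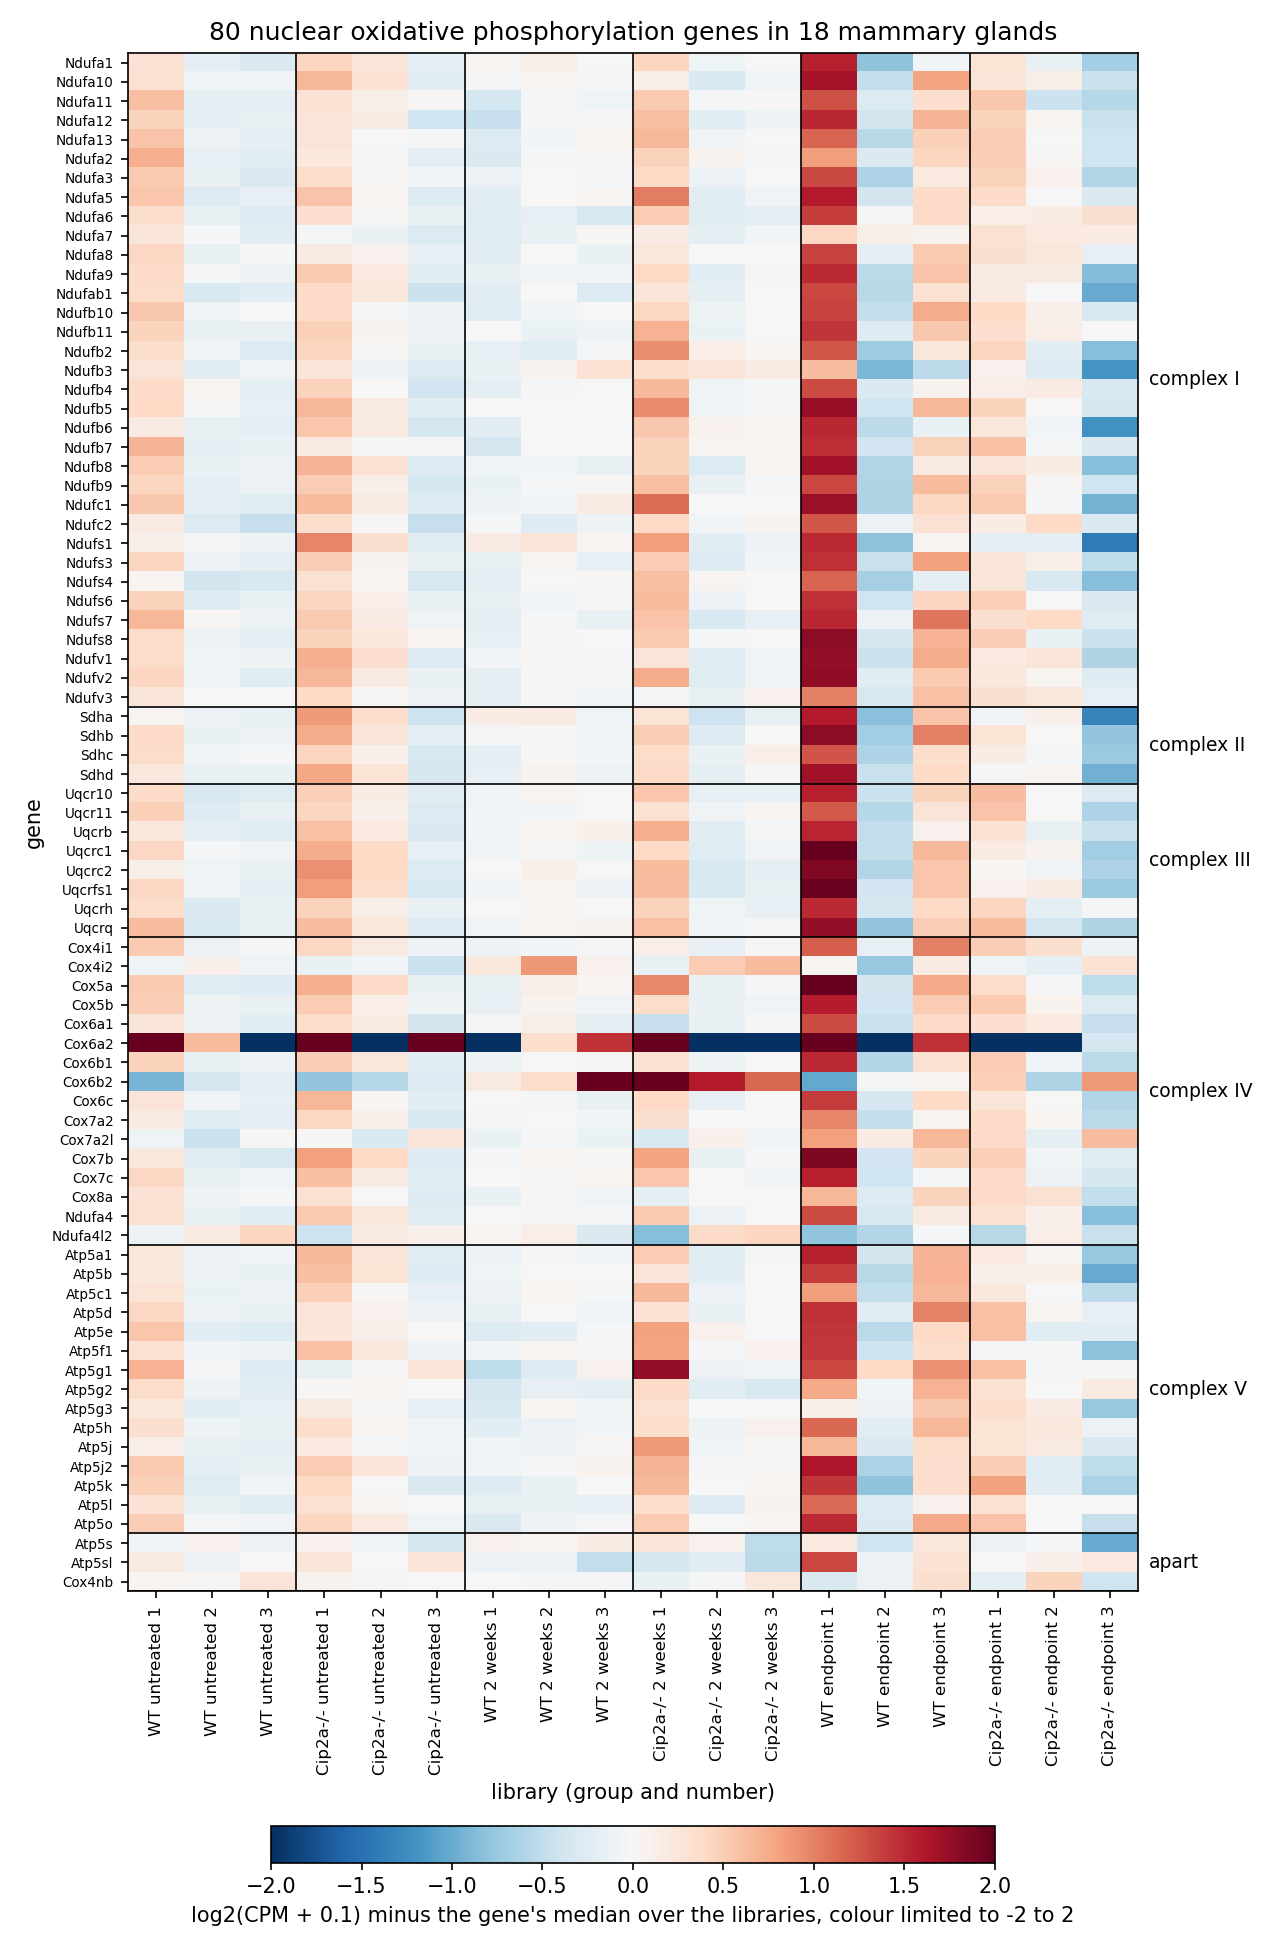
Heat map of 80 of the 81 tested genes (rows, by complex) in the 18 libraries (columns, by group), coloured by log2(CPM + 0.1) minus the gene's median, with colours limited to -2 to 2. Of all 81 genes, WT endpoint 1 is the highest library for 72, and Cip2a-/- endpoint 3 is the lowest for 38.

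The score of a complex is the mean over its genes of log2 CPM after subtracting each gene's own mean. In WT endpoint 1 the scores were 1.28 for complex I, 1.502 for II, 1.55 for III, 1.17 for IV and 1.07 for V. In Cip2a-/- endpoint 3 they were -0.60, -1.04, -0.63, -0.32 and -0.52 in the same order. Complex II, which has no mitochondrially encoded subunit, was thus the lowest of the 5 in Cip2a-/- endpoint 3, while complex III was the highest in WT endpoint 1. Over all 81 genes the WT endpoint libraries scored 1.23, -0.55 and 0.35 and the Cip2a-/- endpoint libraries 0.15, -0.14 and -0.55, so the groups overlapped. The 6 untreated libraries scored -0.28 to 0.35 and the 6 libraries of the 2-week groups -0.26 to 0.45.

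**Figure D2:**
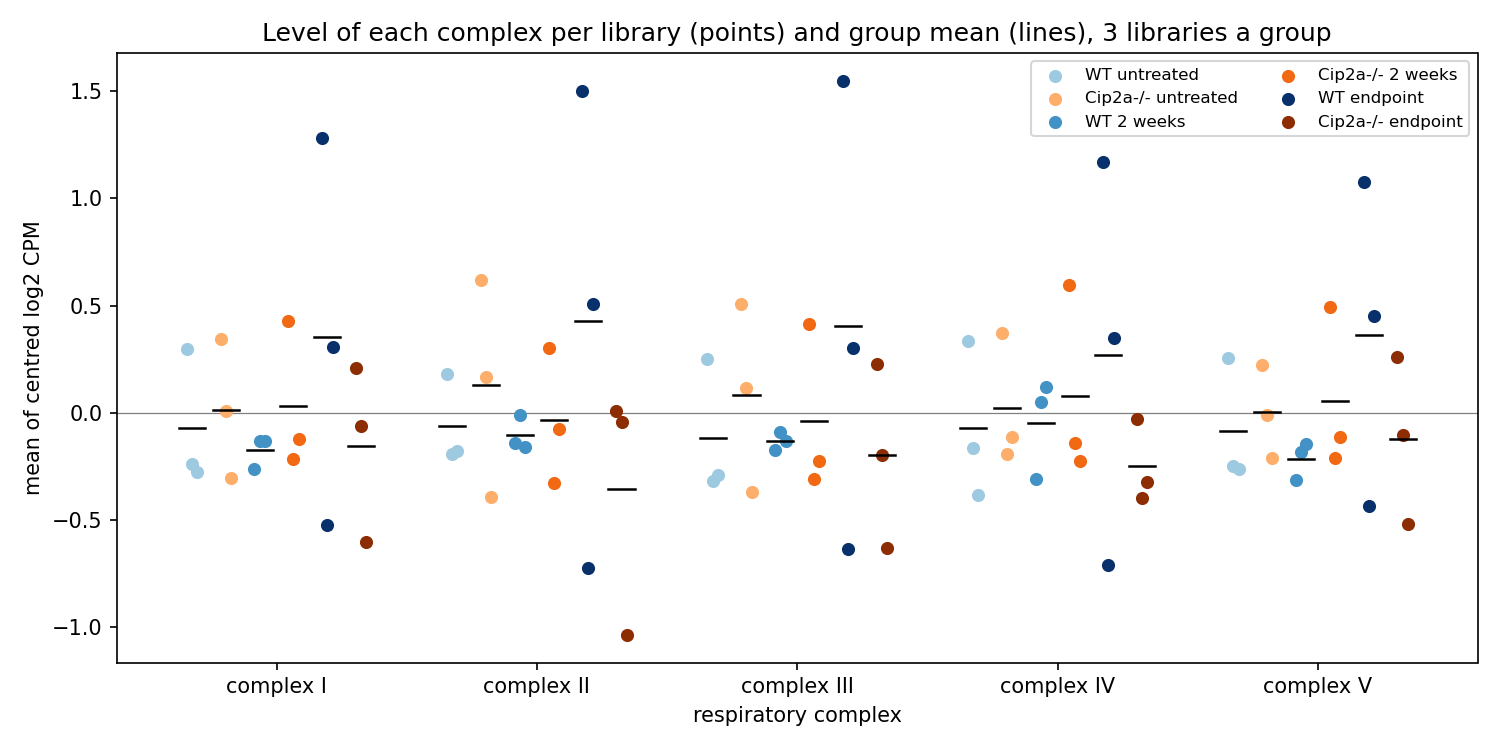
Score of each complex (mean of centred log2 CPM, y axis) in every library, with complexes on the x axis, points coloured by group and lines at the group means. WT endpoint 1 lies at 1.07 to 1.55 in all 5 complexes, above every other library.

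Relative to the median of the other 17 libraries, WT endpoint 1 had a median of 2.71-fold over the 81 genes. The fold was 2.77 for complex I (from 1.36 for Ndufa7 to 3.49 for Ndufv2), 3.20 for II (2.42 for Sdhc to 3.50 for Sdhb) and 3.22 for III (2.36 for Uqcr11 to 4.13 for Uqcrc1). It was 2.51 for complex IV and 2.65 for V (1.10 for Atp5g3 to 3.14 for Atp5j2). Complex IV held both extremes of all 81 genes, 0.473 for Cox6b2 and 48.7 for Cox6a2. Cip2a-/- 2 weeks 1, which had more muscle marker RNA, had a smaller median of 1.42-fold. These are descriptions of single libraries, with no test.

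**Figure D3:**
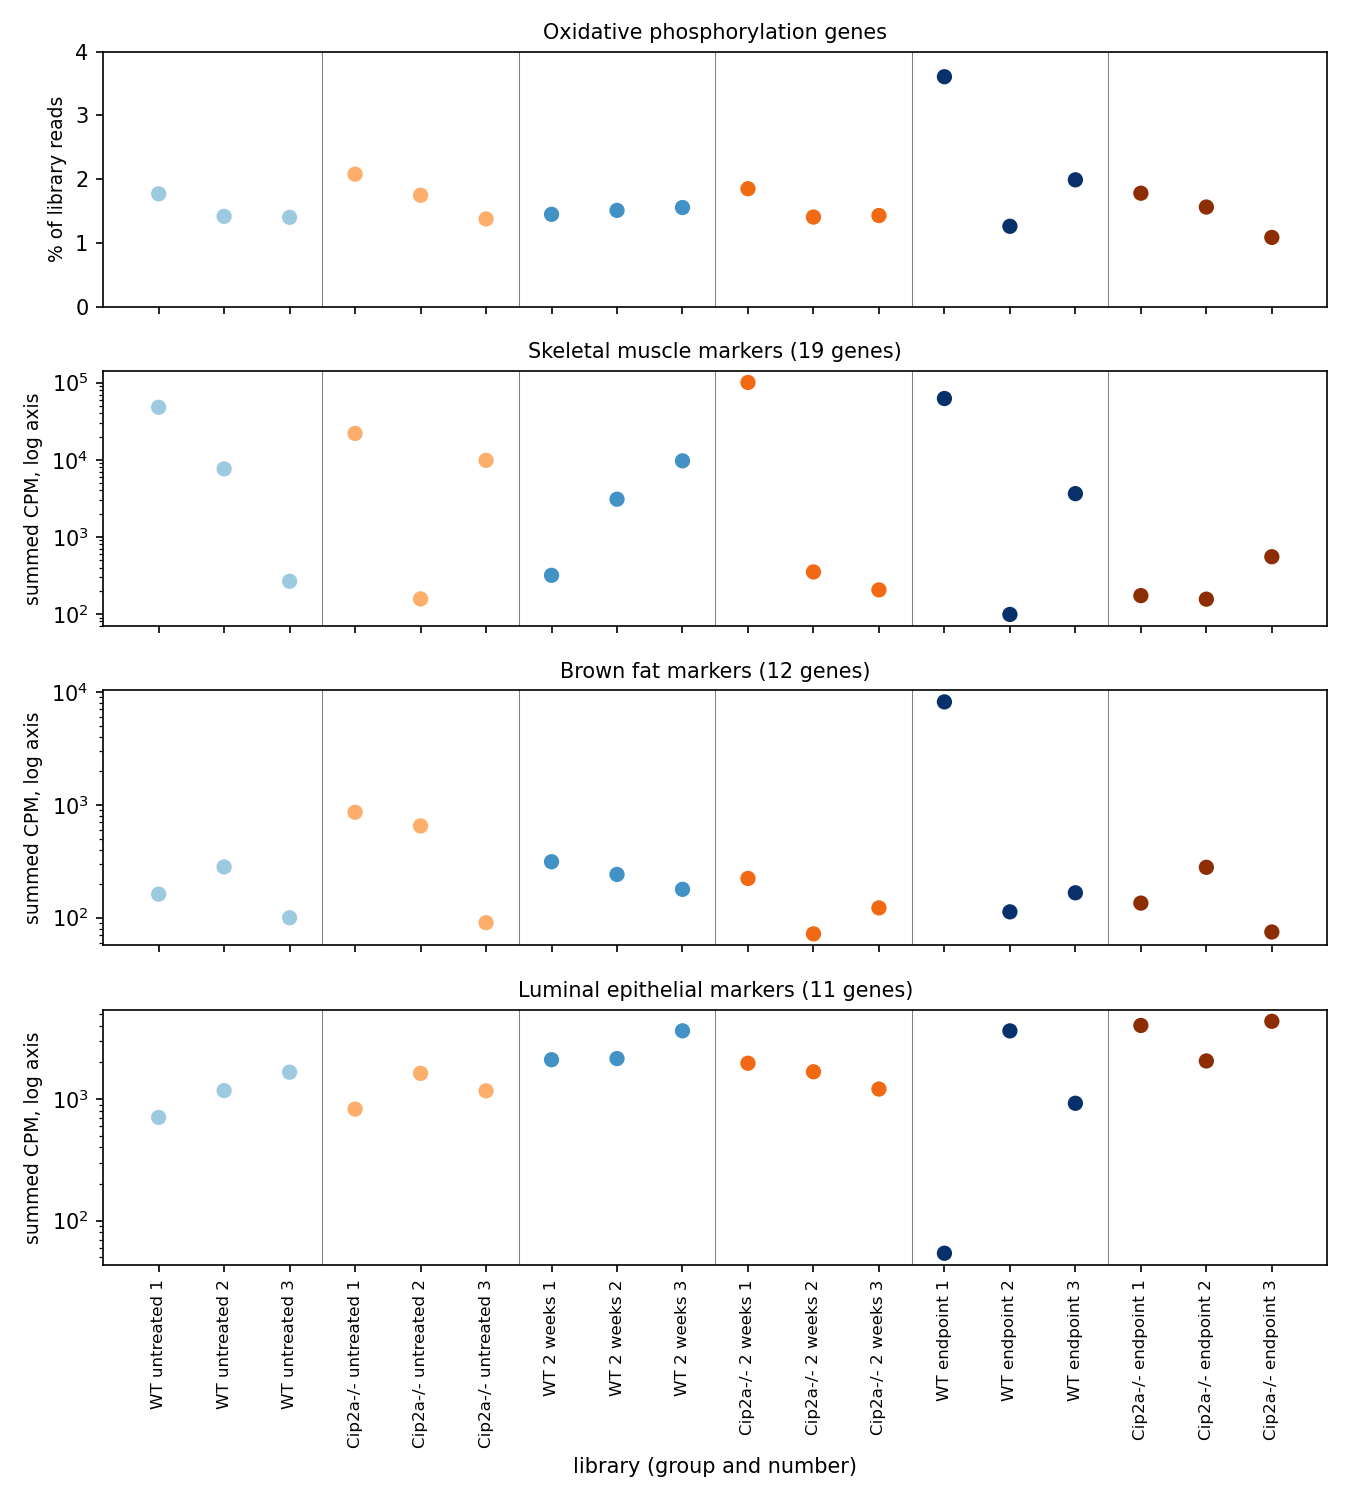
Values of each of the 18 libraries (x axis) for the share of reads on the oxidative phosphorylation genes (%) and the summed CPM, on log axes, of skeletal muscle, brown fat and luminal epithelial markers, with points coloured by group. The highest share, 3.60%, and the highest brown fat sum, 8145 CPM, are both in WT endpoint 1, and the highest muscle sum, 100553 CPM, is in Cip2a-/- 2 weeks 1.

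In complex I, Ndufs1, the largest subunit of the NADH-oxidising arm, was at 465, 93.8 and 171 CPM in the WT endpoint libraries and at 144, 146 and 62.2 CPM in the Cip2a-/- endpoint libraries. The groups overlapped, and the 12 other libraries lay between 141 and 327 CPM. Ndufv1, which binds NADH, was at 784, 173 and 389.8 CPM in WT and 265, 276 and 153 CPM in Cip2a-/- glands at the endpoint. Ndufa9, which stabilises the junction of the membrane and peripheral arms, was at 394, 95.4 and 206 CPM and at 158, 158 and 76.0 CPM. All 3 had their highest value in WT endpoint 1 and their lowest in Cip2a-/- endpoint 3. Ndufa7, an accessory subunit, was the steadiest of the 81 genes, with 202, 164 and 159 CPM in WT and 186, 173 and 169 CPM in Cip2a-/- glands at the endpoint. Its highest library was 1.62-fold over its lowest, against a median of 3.89-fold for the 81 genes.

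In complex II, Sdha was at 1665, 311 and 828 CPM in the WT endpoint libraries and at 533, 596 and 220.0 CPM in the Cip2a-/- endpoint libraries. Its highest library was 7.57-fold over its lowest, the widest range after Cox6a2 and Cox6b2. The untreated libraries were at 581, 516 and 504 CPM in WT and 1005, 713 and 418 CPM in Cip2a-/- glands. The 2-week libraries, at 614, 623 and 525 CPM in WT and 673, 418 and 504 CPM in Cip2a-/- glands, all lay within the untreated range. WT endpoint 2 and Cip2a-/- endpoint 3 were below every untreated library, so the low values occurred in both genotypes.

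In complex III, Uqcrc1, a core protein (chr9:108936648-108949641), was at 1339, 238 and 519 CPM in WT and 372, 347 and 204 CPM in Cip2a-/- glands at the endpoint. Its 12 other libraries lay between 281 and 556 CPM. Uqcrfs1, the Rieske iron-sulfur protein, was at 774, 151 and 286 CPM and at 208, 218 and 117 CPM in the same groups. For both genes WT endpoint 2 was below 2 of the 3 Cip2a-/- endpoint libraries, so the groups overlapped.

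In complex IV, Cox4i1, the widely expressed form of subunit 4, was at 1213, 472 and 1052 CPM in WT and 738, 653 and 489 CPM in Cip2a-/- glands at the endpoint, and at 471 to 757 CPM in the 12 other libraries. Cox8a, the widely expressed form of subunit 8, was at 641, 333 and 547 CPM and at 523, 499 and 286 CPM in the same groups, a narrower range than that of Cox7b, which was at 517, 108 and 193 CPM and at 196, 136 and 119 CPM. Both groups overlapped for each of the 3 genes. Ndufa4, once assigned to complex I and now known as a complex IV subunit, was at 596, 192 and 273 CPM and at 297, 257 and 133 CPM, and its correlation with the other subunits was 0.942.

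In complex V, Atp5b (chr10:128083307-128090388) was at 5023, 1299 and 3099 CPM in WT and 2044, 2056 and 945 CPM in Cip2a-/- glands at the endpoint, and at 1588 to 2899.5 CPM in the 12 other libraries. The membrane ring of complex V is built from subunit c, which Atp5g1, Atp5g2 and Atp5g3 encode as the same mature protein. By CPM per kilobase, Atp5g3 gave 69.1% to 83.4% of the 3 genes' sum (median 80.2%), Atp5g2 12.7% to 25.2% (15.1%) and Atp5g1 3.25% to 10.2% (4.47%). Annotated transcripts run from 596 to 4715 bases for Atp5g1 and from 441 to 731 for Atp5g2. These shares, and the order of those 2 genes, thus depend on the length used and are uncertain. Atp5g1 was highest in Cip2a-/- 2 weeks 1, at 207 CPM against 56.2 and 58.6 CPM in the other libraries of that group. Its log2 difference between Cip2a-/- and WT glands at 2 weeks was 1.02 ± 0.44 (adjusted p 0.9998 in edgeR's quasi-likelihood test), the smallest p of the 81 genes there. Atp5g3, at 359 CPM in WT endpoint 1 and 481 CPM in WT endpoint 3, was one of the few genes that were not highest in WT endpoint 1.

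The first comparison was Cip2a-/- against WT glands, which asks whether loss of Cip2a goes with a change in these genes. With edgeR's quasi-likelihood test on all 18 libraries and Benjamini-Hochberg adjustment over the 15482 genes tested, none of the 81 genes was called (adjusted p under 0.05) in untreated glands, where 0% of all genes were called, or at 2 weeks, where 0.00646% were. The same held at the endpoint (0 of 81, against 0.00646% of all genes) and for the average of the 3 conditions (0 of 81, against 0.00646%). At an unadjusted p under 0.05, 0 of 81 passed in untreated glands, 1 at 2 weeks, 17 at the endpoint and 0 on average, against 2.27%, 2.44%, 10.7% and 0.917% of all genes. DESeq2 called 0 of 81 in each of these 4 comparisons, and its share of all genes there is not given here.

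In untreated glands 60 of 81 genes had a fitted value above 0 in Cip2a-/- against WT, with a median log2 difference of 0.10, against 0.04 for all genes, 55.6% of which lay above 0. That median was -0.10 without Cip2a-/- untreated 1 and 0.30 without WT untreated 1, and with the muscle and brown fat scores as covariates it was -0.10, with 12 of 81 above 0. At 2 weeks 75 had one, with a median of 0.19 against 0.04, where 55.8% of all genes lay above 0. Without Cip2a-/- 2 weeks 1 the 2-week median was 0.0091, and without both that library and WT endpoint 1 it was -0.02, with 34 genes above 0 and 47 below. At the endpoint the sign was the opposite, with 76 of 81 below 0 and a median of -0.63, against -0.02 for all genes, 47.6% of which lay above 0. Averaged over the 3 conditions 9 of 81 lay above 0 (54.3% of all genes), with a median of -0.11, and without WT endpoint 1 that median was 0.06. By complex, the endpoint medians were -0.66 for I, -1.06 for II, -0.77 for III, -0.58 for IV and -0.55 for V, with all genes of complexes II, III and V below 0.

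The genes with the smallest p at the endpoint included members of complexes II, III and IV. Uqcrc1 had a log2 difference of -1.18 ± 0.46 (SE), and Sdhb, the iron-sulfur subunit of complex II at chr4:140961271-140979198, -1.13 ± 0.46. Cox5a, an early-assembling subunit of complex IV at chr9:57517328-57532427, had -1.31 ± 0.52. In edgeR's quasi-likelihood test with Benjamini-Hochberg adjustment each had an adjusted p of 0.458. Cox5a was at 661, 105 and 228 CPM in the WT endpoint libraries and 174, 131 and 95.3 CPM in the Cip2a-/- endpoint libraries, which overlap. Sdhb was at 731, 130.3 and 423 CPM and at 254, 212 and 122 CPM, which also overlap.

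Without WT endpoint 1 the endpoint median over the 81 genes was -0.08, with 24 genes above 0 and 57 below. By complex it was -0.06 for I, -0.33 for II, -0.02 for III, -0.02 for IV and -0.26 for V. All 4 complex II genes stayed below 0 in that fit. With all 18 libraries the skeletal muscle and brown fat markers moved with the same comparison. Of those tested, 19 of 19 and 10 of 11 had a fitted value below 0 in Cip2a-/- endpoint glands. Muscle markers summed to 98.6 to 62332 CPM in WT and 156 to 553 CPM in Cip2a-/- endpoint glands, and brown fat markers to 113 to 8145 CPM and 74.7 to 279 CPM. None of the markers was at 0 in all WT endpoint libraries, and 1 brown fat marker was at 0 in all Cip2a-/- endpoint libraries. B cell markers also moved, with 9 of 9 below 0 and sums of 5.30 to 2316 CPM in WT and 6.29 to 51.5 CPM in Cip2a-/- endpoint glands. T cell markers did as well, with 9 of 9 below 0 and sums of 19.2 to 777 CPM and 16.0 to 25.8 CPM. Luminal epithelial (11 of 11), fibroblast (8 of 8) and endothelial markers (8 of 8) lay above 0. Without WT endpoint 1, 15 of 19 skeletal muscle markers were below 0, with a median of -1.86 against -6.49 with it. Of the brown fat markers 4 of 11 were below 0, and their median went from -2.82 to 0.89. B cell and T cell markers then had 6 of 9 and 5 of 9 below 0. Luminal epithelial, fibroblast and endothelial markers had 0 of 11, 2 of 8 and 1 of 8 below 0. Fibroblast markers summed to 644 to 3008 CPM in WT and 1228 to 4040 CPM in Cip2a-/- endpoint glands. With the muscle and brown fat scores of each library as covariates the median of the 81 genes was -0.22, and the part of the other markers in the result was not tested.

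**Figure D4:**
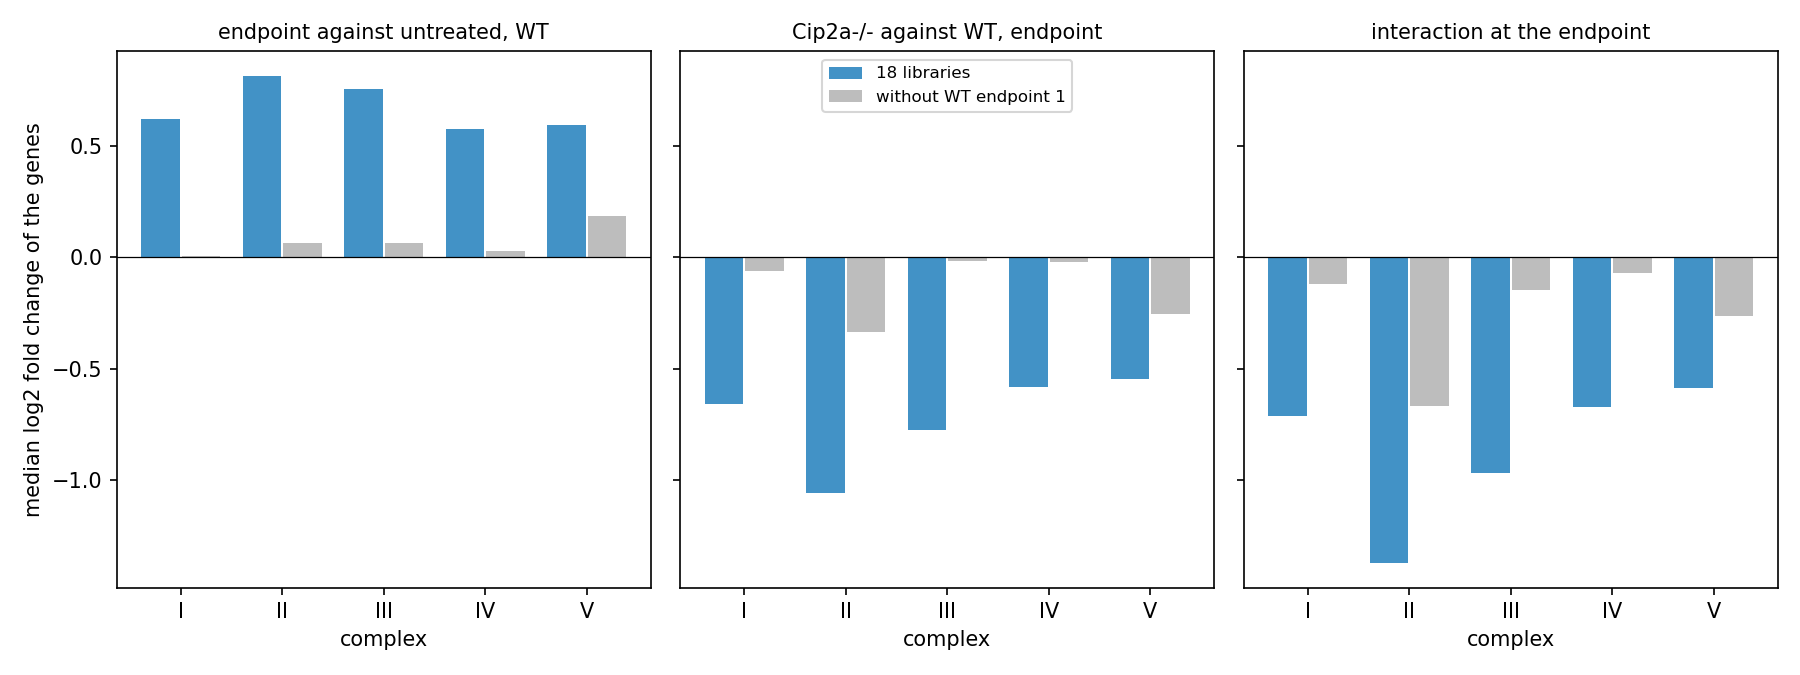
Median log2 fold change of the genes of each complex (x axis) in 3 endpoint comparisons, as bars for all 18 libraries and for the fit without WT endpoint 1. For Cip2a-/- against WT at the endpoint the 5 medians lie between -1.06 and -0.55 with all libraries and between -0.33 and -0.02 without WT endpoint 1.

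Beyond the subunits, other mitochondrial lists had fitted values on the same side in Cip2a-/- against WT at the endpoint. The median was -1.12 for the TCA cycle and pyruvate dehydrogenase (18 of 18 genes below 0), -0.93 for fatty acid oxidation (16 of 17) and -0.74 for carriers and electron shuttles (13 of 16). It was -0.52 for assembly factors (27 of 29 tested), -0.38 for the mitochondrial ribosome (74 of 76), -0.34 for regulators of respiratory genes (12 of 15) and 0.06 for the cytosolic ribosome. In edgeR's quasi-likelihood test none of the genes of these lists was called. At an unadjusted p under 0.05, passed by 10.7% of all genes, 77.8% of the TCA cycle list passed (14 genes), 35.3% of fatty acid oxidation (6), 31.2% of carriers (5), 27.6% of assembly factors (8), 20% of regulators (3), 17.1% of the mitochondrial ribosome (13) and 0% of the cytosolic ribosome. Without WT endpoint 1 the medians were -0.23 for the TCA cycle (16 of 18 below 0), -0.03 for fatty acid oxidation (10 of 17), -0.06 for carriers (10 of 16), -0.19 for assembly factors (24 of 29), -0.14 for the mitochondrial ribosome (66 of 76), -0.07 for regulators (9 of 15) and 0.06 for the cytosolic ribosome. In that fit 2 carrier genes and 2 mitochondrial ribosome genes had an unadjusted p under 0.05 in edgeR's quasi-likelihood test. The TCA cycle, fatty acid oxidation, assembly factor, regulator and cytosolic ribosome lists had 0. The share of all genes that passed in that fit is not given here. In WT endpoint 1 the TCA cycle genes summed to 19336 CPM, against 2567 to 9935 CPM elsewhere. Of the regulators, Ppargc1a, which encodes PGC-1alpha, was at 20.5 CPM in WT endpoint 1 and 20.7 CPM in Cip2a-/- 2 weeks 1. Esrra, an estrogen-related receptor, was at 182 CPM in WT endpoint 1 and at 45.7 to 100.4 CPM elsewhere. Nrf1, at 22.8 to 43.0 CPM, and Gabpa, at 21.6 to 55.2 CPM, varied less.

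The second comparison followed the glands after DMBA. At 2 weeks against untreated, edgeR's quasi-likelihood test called 0 of 81 genes in WT (0% of all genes), 0 in Cip2a-/- (0.0129%) and 0 averaged over the genotypes (0.0258%). At an unadjusted p under 0.05, 1, 1 and 2 passed, against 4.23%, 4.53% and 6.57% of all genes. DESeq2 called 0, 1 and 1, and its share of all genes in these comparisons is not given here. In the same order 17, 37 and 20 of 81 lay above 0 (47.7%, 50.3% and 49.9% of all genes), with medians of -0.11, -0.01 and -0.05. The signs of these medians rested on single libraries and on the processing. The WT median was 0.08 without WT untreated 1 and 0.04 with the transcript length trend removed. The Cip2a-/- median was -0.20 without Cip2a-/- 2 weeks 1 and 0.17 without Cip2a-/- untreated 1, and the averaged one was -0.17 without Cip2a-/- 2 weeks 1 and 0.05 without WT untreated 1. With the muscle and brown fat covariates the Cip2a-/- median was 0.21 and the averaged one 0.03. The smallest p in both genotypes belonged to Cox6b2 (chr7:4751792-4753094), the testis form of subunit 6b.

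Cox6b2 was at 2.78, 4.19 and 4.71 CPM in WT untreated and 3.05, 3.58 and 4.40 CPM in Cip2a-/- untreated glands. At 2 weeks it was at 6.07, 6.88 and 28.9 CPM in WT and 38.9, 16.2 and 12.0 CPM in Cip2a-/- glands. All 6 libraries of the 2-week groups lay above all 6 untreated libraries, and WT 2 weeks 3 and Cip2a-/- 2 weeks 1 were the highest. The log2 change was 1.84 ± 0.61 in WT (adjusted p 0.953), 2.60 ± 0.63 in Cip2a-/- (0.514) and 2.22 ± 0.44 averaged (0.110), in edgeR's quasi-likelihood test with Benjamini-Hochberg adjustment. DESeq2 called it in Cip2a-/- glands (2.61, adjusted p 0.0124) and averaged (2.22, adjusted p 0.000185). The share of all genes that DESeq2 called in these comparisons is not given here. At the endpoint against 2 weeks it called more genes than edgeR, 21% against 13.4% of all genes. At the endpoint it was at 2.60, 5.22 and 5.50 CPM in WT and 7.52, 3.49 and 9.79 CPM in Cip2a-/- glands, overlapping both other times. By CPM per kilobase it made up 0.367% to 11.1% of the Cox6b1 and Cox6b2 sum, with the 2 highest shares, 11.1% and 10.2%, in Cip2a-/- 2 weeks 1 and WT 2 weeks 3.

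The endpoint was compared with untreated glands in each genotype. In edgeR's quasi-likelihood test 0 of 81 genes were called in WT (0.0323% of all genes), 0 in Cip2a-/- (0%) and 0 averaged (0.252%). At an unadjusted p under 0.05, 12, 1 and 2 passed, against 12%, 14.6% and 16.9% of all genes. DESeq2 called 0, 0 and 1, and its share of all genes in these comparisons is not given here. In WT 77 of 81 genes had a fitted value above 0, with a median of 0.62 (57.8% and 0.08 for all genes), in Cip2a-/- 20 of 81, with a median of -0.17 (47.2% and -0.04), and averaged 75 of 81, with a median of 0.24 (52.2% and 0.02). The complex medians in WT were 0.62, 0.81, 0.75, 0.58 and 0.59 for I to V. Without WT endpoint 1 the WT median was 0.06, with 48 genes above 0 and 33 below, and the averaged median -0.05. The Cip2a-/- median was 0.03 without Cip2a-/- endpoint 3 and -0.36 without Cip2a-/- endpoint 1, and it was 0.29 with the muscle and brown fat covariates. This comparison and the genotype comparison at the endpoint share the WT endpoint libraries.

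The interaction asks whether the change from untreated differed between genotypes. At the endpoint 0 of 81 genes were called by edgeR's quasi-likelihood test (0% of all genes), 6 passed an unadjusted p under 0.05 (10% of all genes) and DESeq2 called 0. The median was -0.71 with 5 of 81 above 0 (45.4% of all genes), and -0.14 without WT endpoint 1. By complex it was -0.71, -1.37, -0.97, -0.67 and -0.59 for I to V, and -0.12, -0.66, -0.15, -0.07 and -0.26 without that library. Genes with the smallest p-values included Uqcrc2 (-1.57 ± 0.66), Sdhd (-1.36 ± 0.61) and Cox5a (-1.61 ± 0.73). At 2 weeks the interaction called 0 of 81 (0% of all genes), 0 passed an unadjusted p under 0.05 (2.9% of all genes), DESeq2 called 0, and 57 of 81 lay above 0 (49.1% of all genes), with a median of 0.09. That median was -0.06 without Cip2a-/- 2 weeks 1, -0.06 with the transcript length trend removed, with 29 of 81 above 0, and -0.12 without both muscle-rich libraries.

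The endpoint was then set against 2 weeks with both genotypes averaged, the comparison in which some of these genes were called. In edgeR's quasi-likelihood test 3 of 81 genes passed, against 13.4% of all genes: Atp5sl and Cox7a2l rose and Cox6b2 fell. At an unadjusted p under 0.05, 12 of 81 passed, against 30.1% of all genes. The median of the 81 genes was 0.29, with 72 above 0, against 0.05 for all genes, 53.6% of which lay above 0, and it was -0.01 without WT endpoint 1, with 40 above 0 and 41 below. By complex the medians were 0.32 for I, 0.24 for II, 0.33 for III, 0.28 for IV and 0.29 for V. Those without WT endpoint 1 are not given here.

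Cox6b2 fell by 1.67 ± 0.43 on the log2 scale (adjusted p 0.0234, edgeR's quasi-likelihood test with Benjamini-Hochberg adjustment). Its 2-week median was 14.1 CPM, with a range of 6.07 to 38.9 CPM, and its endpoint median 5.36 CPM, with a range of 2.60 to 9.79 CPM, so the times overlapped. Without WT 2 weeks 3 it was -1.12 (adjusted p 0.0664), and without Cip2a-/- 2 weeks 1 it was -1.34 (0.0599), so the call rested on each of these libraries.

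Cox7a2l (chr17:83501917-83514333) rose by 0.53 ± 0.16 on the log2 scale (adjusted p 0.0401, edgeR's quasi-likelihood test with Benjamini-Hochberg adjustment). It was at 95.8, 103 and 96.8 CPM in WT and 85.4, 114 and 102 CPM in Cip2a-/- glands at 2 weeks, and at 187, 118 and 168 CPM and 137, 92.8 and 163 CPM at the endpoint. Only Cip2a-/- endpoint 2 fell within the 2-week range. Untreated glands, at 78.3 to 126 CPM, lay with the 2-week glands. The averaged change from untreated to the endpoint was 0.51 ± 0.16 (edgeR adjusted p 0.137, DESeq2 adjusted p 0.0404). The share of all genes that DESeq2 called there is not given here. Unlike most complex IV genes, Cox7a2l did not follow the other subunits. Its correlation with them was 0.202 after the group means were removed and 0.313 before. It was at 163 CPM in Cip2a-/- endpoint 3, the lowest library for 38 of the 81 genes. It shares a near-identical stretch with the pseudogene Gm6969.

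Atp5sl (chr7:25619414-25625550) rose by 0.66 ± 0.19 on the log2 scale (adjusted p 0.0354, edgeR's quasi-likelihood test with Benjamini-Hochberg adjustment). It was at 39.97, 40.1 and 30.9 CPM in WT and 33.9, 37.1 and 30.2 CPM in Cip2a-/- glands at 2 weeks. At the endpoint it was at 109, 39.7 and 52.9 CPM in WT and 43.3, 46.4 and 49.8 CPM in Cip2a-/- glands, with only WT endpoint 2 inside the 2-week range. Untreated glands were at 39.98 to 51.8 CPM, so its low values were at 2 weeks. It overlaps the gene Gm38969.

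**Figure D5:**
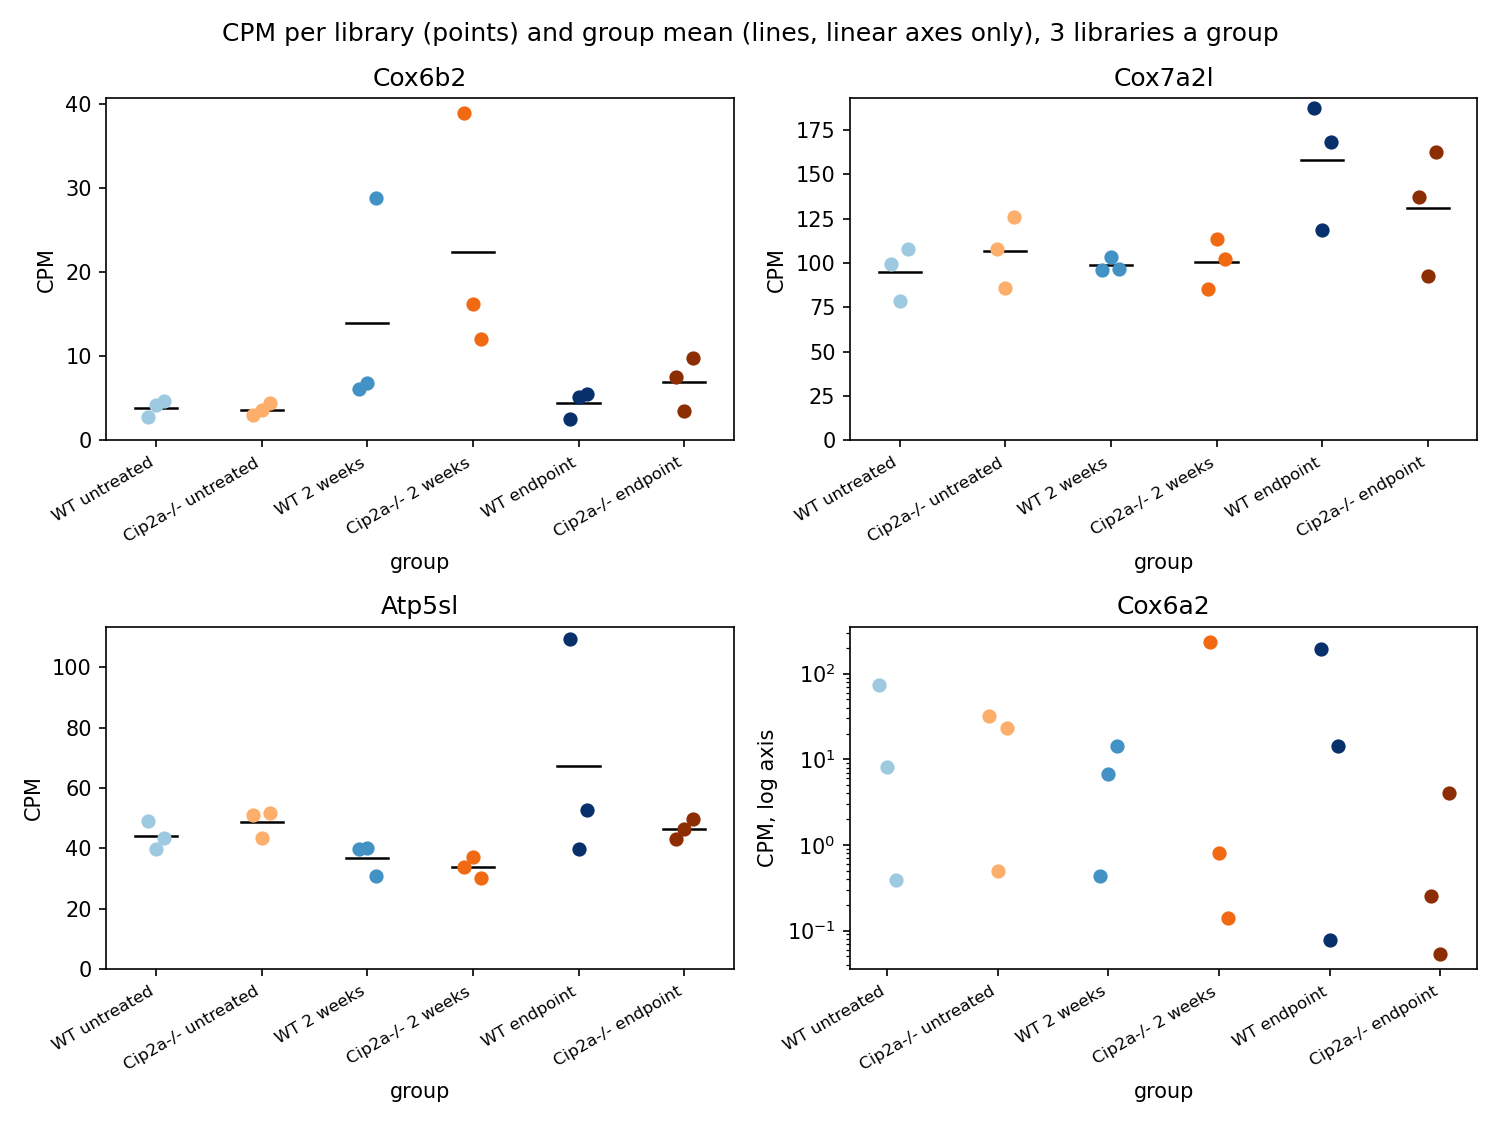
CPM of Cox6b2, Cox7a2l, Atp5sl and Cox6a2 in the 18 libraries by group, as points, with lines for the group means on the linear axes and a log axis for Cox6a2. The 2-week points of Cox6b2 reach 38.9 CPM, and those of Cox7a2l reach 114 CPM while its endpoint points reach 187 CPM.

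The 3 calls did not hold in every refit. Leaving out each of the 12 libraries in turn, Cox6b2 lost its call in 2 refits (adjusted p 0.0241 to 0.0664 over the 12), Atp5sl in 8 (0.0102 to 0.0860) and Cox7a2l in 9 (0.0180 to 0.0967), each with the same sign throughout, in edgeR's quasi-likelihood test. Without both WT endpoint 1 and Cip2a-/- 2 weeks 1, none of the 3 was called, at adjusted p 0.0849, 0.0545 and 0.127, and Atp5g2 was called instead (0.52, adjusted p 0.0448). Other values moved with the same comparison. Log2 CPM relative to each gene's mean had a slope, for each doubling of transcript length, of 0.00 to 0.12 in the 2-week and -0.15 to -0.01 in the endpoint libraries. With that trend removed Cox6b2 was called (-1.84, adjusted p 0.0207), while Atp5sl (0.60, adjusted p 0.0616) and Cox7a2l (0.40, adjusted p 0.0950) were not. Fibroblast markers fell, from sums of 4973 to 12495 CPM at 2 weeks to 644 to 4040 CPM at the endpoint. Of these markers 6 of 8 were called, against 13.4% of all genes. Called higher were 2 of 2 erythroid markers tested and 1 of 11 brown fat markers, and 1 of 8 macrophage markers was called lower. Skeletal muscle (19 of 19 lower) and B cell markers (9 of 9 higher) also moved, with 0 called. The part of these markers in the result was not tested. The column headers carry a number for each library of unknown meaning, and all the 2-week numbers exceed all the endpoint numbers.

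Among other lists in the endpoint against 2 weeks comparison, where 13.4% of all genes were called, 67 of 74 cytosolic ribosome genes were called higher, with a median of 0.79. The mitochondrial ribosome had 5 of 76 called, with a median of 0.16, assembly factors 1 of 29 (0.03) and carriers and electron shuttles 1 of 16. The TCA cycle (0 of 18, median 0.23), fatty acid oxidation (0 of 17, 0.29) and the regulators (0 of 15, 0.09) had none.

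Of the 81 genes the widest range was that of a complex IV isoform. Cox6a2, the heart and skeletal muscle form of subunit 6a (chr7:128205435-128206366), was at 73.9, 8.10 and 0.388 CPM in WT untreated and 32.5, 0.495 and 23.4 CPM in Cip2a-/- untreated glands. At 2 weeks it was at 0.433, 6.65 and 14.3 CPM in WT and 232, 0.804 and 0.139 CPM in Cip2a-/- glands, and at the endpoint at 197, 0.0774 and 14.5 CPM and 0.251, 0.0537 and 4.04 CPM. The highest library was 4327-fold over the lowest, every group overlapped with every other, and the 5 libraries highest in Cox6a2 were also the 5 highest in summed muscle markers. Its share of the Cox6a1 and Cox6a2 sum per kilobase was 43.2% in Cip2a-/- 2 weeks 1 and 15.8% in WT endpoint 1, and 0.0111% to 12.9% in the other libraries. Cox6a2 overlaps the gene Itgad.

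Cox7a1 and Cox8b, the muscle and brown fat isoforms that the selection left out, were both highest in WT endpoint 1. Cox7a1 was at 283 CPM in WT endpoint 1, 58.9 CPM in Cip2a-/- 2 weeks 1 and 1.04 to 44.3 CPM in the other libraries, and Cox8b at 651, 153 and 3.72 to 178 CPM. Cox7a1 made up 59.0% of its pair per kilobase in WT endpoint 1 and 31.9% in Cip2a-/- 2 weeks 1, and Cox8b 60.8% and 39.6% of its pair. Both isoforms, unlike Cox6a2, were thus higher in WT endpoint 1, the library with the high brown fat markers, than in Cip2a-/- 2 weeks 1.

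A few genes did not follow the rest. Cox4i2, the lung form of subunit 4 (correlation 0.184), was at 3.60 to 11.4 CPM and made up 0.543% to 2.27% of the Cox4i1 and Cox4i2 sum per kilobase. Its averaged change at 2 weeks against untreated was 0.51 ± 0.21 (edgeR adjusted p 0.734). Ndufa4l2, a hypoxia-induced relative of the complex IV subunit Ndufa4, had the most opposed pattern (-0.467) and was at 10.8 CPM in Cip2a-/- 2 weeks 1 and 11.2 CPM in WT endpoint 1, its 2 lowest libraries. Cox6b2 (-0.187) and Cox4nb (-0.136) also ran apart. Cox4nb lies next to Cox4i1 on chromosome 8 (Cox4nb at 120653914 to 120668087 and Cox4i1 at 120668225 to 120674209), yet it stayed at 52.5 to 94.2 CPM while Cox4i1 ranged from 471 to 1213 CPM and had a correlation of 0.921 with the other subunits.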

How the data were processed

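RNA sequencing of 18 mouse mammary gland libraries was analysed, in 6 groups of 3 given by the library titles. The authors deposited raw read counts per gene symbol, per the file headers; the NucleoSpin kit was used for RNA and TruSeq Stranded mRNA for libraries, per the labels' protocols. Per the submitters' processing notes, bcl2fastq 2.17, STAR 2.5.2b, Subread 1.5.1 and mm10 were used. Annotation, strand setting and counting of multi-mapping reads were not given in these sources.

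Genes were kept with filterByExpr (minimum count 10, minimum total count 15), which left 15482, and fitted with edgeR 4.0.16 (R 4.3.3) by quasi-likelihood on all 18 libraries, with 1 term per group and TMM scaling. Each of 13 comparisons was adjusted over all genes by the Benjamini-Hochberg method, and called means an adjusted p under 0.05. CPM uses the TMM-scaled library sizes, and scores use log2 CPM with a prior count of 2. Named genes are core subunits, paired or tissue-restricted forms, the 2 with the highest level per kilobase in each complex, the called genes of a comparison or, with none called, those with the smallest p-values, and those with the widest or narrowest spread or the most or least like the mean of the others. The members and gene lists were chosen with earlier results of these data known. Alternatives were DESeq2 1.42.0, RLE scaling, no filter, each library left out, a replicate block, only the groups compared, a removed length trend, muscle and brown fat scores as covariates and named subunits only; leaving out both muscle-rich libraries was chosen after seeing the data. The fit was tested on simulated data. Values of 1 gene that the naming rule selects are not reported here, though counts and medians include it. Near-identical stretches were found with BLAST 2.17.0, promoters and coordinates are from RefSeq on GRCm38.p6, and figures were drawn with matplotlib 3.10.9.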

Additional observations from a re-analysis of the deposited data

How the results depend on the processing

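Every count of calls was as reported under RLE scaling. DESeq2 called 1 member at 2 weeks against untreated in Cip2a-/- glands and 1 averaged over genotypes (both Cox6b2), 1 at the endpoint against untreated averaged (Cox7a2l), and 6 at the endpoint against 2 weeks (21% of all genes), where edgeR had called 3 (13.4%). The share of all genes called by DESeq2 is given only for that last comparison. For that last comparison the count of called members was 2 with no filter on low counts (8.52% of all genes called), 1 with the length trend removed (10.9%), 15 with the muscle and brown fat scores as covariates (16.7%), 0 with only the groups compared (3.96%), 1 with both muscle-rich libraries left out (11%), and 0 to 13 when single libraries were left out (0 without WT 2 weeks 3, with 6.79% of all genes called, and 13 without WT endpoint 2, with 14.3%). The cause was not tested. With the covariates, 1 member was called at the endpoint against untreated averaged, against 1.91% of all genes. The median in Cip2a-/- glands at the endpoint against untreated was then 0.29. Cox6a2 reversed with the covariates at the endpoint against 2 weeks, from -1.23 ± 1.67 to 1.28 (edgeR adjusted p 0.0274).

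The medians of the endpoint comparisons that include the WT endpoint group moved most without WT endpoint 1. Leaving out single libraries, they ranged from -0.96 to -0.084 for Cip2a-/- against WT, from 0.056 to 0.96 for the endpoint against untreated in WT, and from -1.06 to -0.14 for the interaction. With both muscle-rich libraries left out they were -0.065, 0.065 and -0.14, and with the covariates the interaction was -0.10.

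Replicate numbers showed no clear pairing of the libraries. Same-numbered libraries of different groups had correlations of -0.47 to 0.66 over 45 pairs. Of the 18 libraries, 7 correlated best with their own number. Such a check cannot exclude a shared litter, cage or day. With the number as a replicate block, 4 members were called at the endpoint against 2 weeks, against 13.5% of all genes. Atp5g2 joined there (0.45, adjusted p 0.0496 in edgeR's quasi-likelihood test). With the block, 0 members were called in each of the other 12 comparisons.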
